A study of Mus musculus with 2 samples.

Results

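Genomic imprinting silences the maternal or the paternal copy of a gene by DNA methylation set in the germ line. MicroRNAs that lie inside or beside such genes can be made from that gene's transcript. Mir335, Mir483, Mir675, Mir296 and Mir298 are 5 mouse microRNA hairpins at imprinted loci other than the Dlk1-Dio3 region. They were chosen by name, by matching the gene identifiers of the count tables to GENCODE, and make up 5 of the 1973 genes counted. Both libraries came from hindbrain of healthy B6NCrl mouse embryos at embryonic day 16.5, with male and female embryos pooled, no treatment and no engineered allele. Replicate 1 was a pool whose number of embryos is not given in the sources used here, and replicate 2 was a pool of 37 embryos. The hindbrain of the embryo gives rise to the cerebellum, the pons and the medulla. Because the series holds 1 group, the data give levels and their spread between the 2 pools, and no contrast of conditions. Reads were not separated by parental allele, so imprinting itself was not measured.

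A microRNA hairpin is cut first by Drosha and then by Dicer, and 1 strand of the resulting duplex is loaded into an Argonaute protein. The loaded strand pairs with messenger RNAs mainly through its seed, bases 2 to 8 from the 5′ end, and lowers their translation and stability. Mest, the host of Mir335, encodes a protein of the alpha/beta hydrolase fold and is expressed from the paternal chromosome in the mouse embryo. Igf2, the host of Mir483, encodes insulin-like growth factor 2, a growth factor of the embryo that is paternally expressed in most mouse tissues. In mouse brain, Igf2 is known for expression in the choroid plexus and leptomeninges, where it is read from both alleles. H19, the host of Mir675, is a long noncoding RNA expressed from the maternal chromosome beside Igf2. Mir296 and Mir298 lie in the Gnas region and belong to the paternally expressed transcription unit of Nespas, an RNA antisense to the Nesp promoter of Gnas.

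The mature forms that the 5 hairpins can give are given because their seeds decide which messenger RNAs they pair with and whether the 5 could act as 1 family. The sequences are those of RefSeq for GRCm38.p6, written 5′ to 3′, with the seed in capitals.
miR-335-5p: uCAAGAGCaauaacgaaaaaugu
miR-335-3p: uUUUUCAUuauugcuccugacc
miR-298-5p: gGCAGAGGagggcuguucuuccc
miR-298-3p: gAGGAACUagccuucucucagcuu
miR-296-5p: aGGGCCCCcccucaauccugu
miR-296-3p: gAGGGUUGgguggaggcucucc
miR-483-5p: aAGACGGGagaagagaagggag
miR-483-3p: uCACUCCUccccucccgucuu
miR-675-5p: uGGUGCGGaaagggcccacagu
miR-675-3p: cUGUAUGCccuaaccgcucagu

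The 10 mature forms carried 10 different seeds, and none of these seeds occurred in another of the 1738 mature sequences of the RefSeq table. The 5 hairpins are therefore related by the kind of locus they lie in and not by sequence family. Over the shorter core of bases 2 to 7, 4 of the 10 matched 1 other microRNA each: miR-335-5p matched miR-7646-5p, miR-335-3p matched miR-6986-3p, miR-296-5p matched miR-5621-3p, and miR-483-3p matched miR-3110-3p. Their own reads were few: Mir6986 had 4 counts in replicate 1 and 2 in replicate 2, Mir5621 had 4 and 0, and Mir3110 had 0 and 2. Mir7646 was not analysed here.

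Composition varied among the 5. The Mir335 hairpin was 98 nt long with 42.9% G and C, against a median of 51.7% over the 1005 hairpins of the table, and miR-335-5p itself held 30.4%. Mir296 (79 nt) was at the other end with 63.3%, next to Mir675 (84 nt) with 63.1%, Mir483 (73 nt) with 58.9% and Mir298 (82 nt) with 53.7%. Small-RNA libraries can favour some sequences over others in ligation and amplification, so levels of different hairpins are reads per hairpin and not molecules. Each read covers about 1 mature form whatever the length of its precursor, and counts were not divided by length. The counts are per hairpin, so the 5p and 3p forms of 1 hairpin cannot be told apart in them.

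Mir298 and Mir296 are the closest pair on the chromosome, and their precursors are printed whole because their counts were nearly equal. Capitals mark the 2 mature forms of each.
Mir298: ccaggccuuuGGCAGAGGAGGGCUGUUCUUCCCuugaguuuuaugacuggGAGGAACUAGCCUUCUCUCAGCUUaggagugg
Mir296: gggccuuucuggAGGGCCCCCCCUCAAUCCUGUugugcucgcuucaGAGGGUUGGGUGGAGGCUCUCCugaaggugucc

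The longest stretch these 2 hairpins had in common was 7 bases, far shorter than a mature form. Against all other hairpins, the longest shared run was 12 bases for Mir298, with Mir8099-1 and Mir8099-2, and 11 bases for each of the other 4. Each of the 10 mature forms occurred in its own hairpin only. Hairpins with identical copies elsewhere lose reads to the multimapping class, which was left out of the counts, and no such copy was found for these 5 among the hairpins or the annotated transcripts, apart from H19 itself, which contains Mir675.

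The 5 hairpins lie at 3 loci, and all are on the strand of the gene that hosts them or that they are assigned to. In GRCm38 (GENCODE M21), Mir335 (ENSMUSG00000065501.1) spans chr6:30741299-30741396 on the plus strand, in an intron of Mest and 17.8 kb from that gene's start. It is spanned by 7 of the 11 annotated Mest transcripts and is exonic in 0 of them. Mir483 (ENSMUSG00000070140.1) spans chr7:142654924-142654996 on the minus strand, in an intron of Igf2 and 11.8 kb from its start, with 0 of 9 transcripts holding it in an exon. Mir675 (ENSMUSG00000076275.1) at chr7:142577064-142577147, also on the minus strand, is the exonic one. It lies 0.996 kb into H19, within an exon of 3 of the 7 annotated H19 transcripts. Mir298 (ENSMUSG00000065410.1) and Mir296 (ENSMUSG00000065521.1) lie on the minus strand of chromosome 2 at chr2:174267504-174267585 and chr2:174267047-174267125, separated by 378 bp. Neither falls inside the 3 annotated Nespas transcripts, which end 13.7 kb and 14.1 kb upstream of Mir298 and Mir296.

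**Figure D1:**
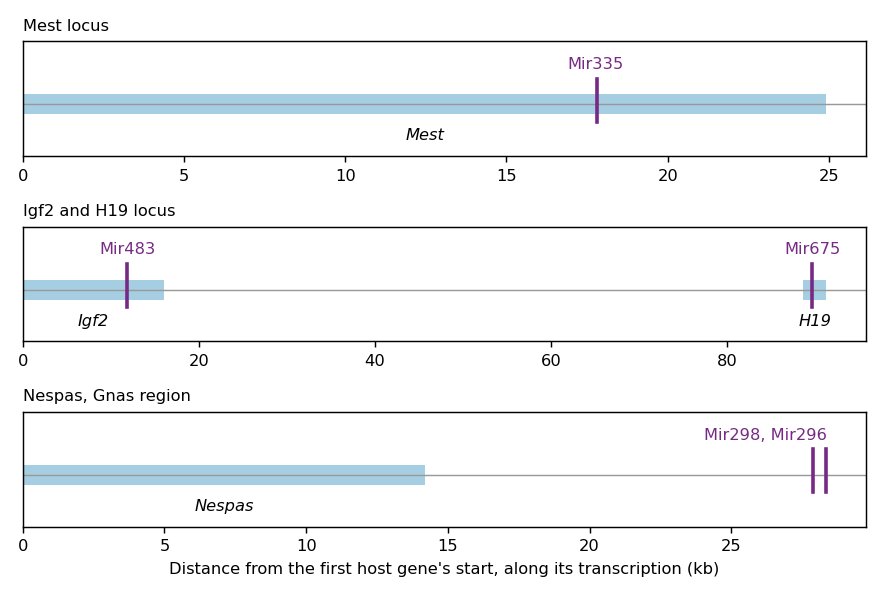
Map of the 3 loci, drawn to scale along the direction of transcription, with distance in kb from the start of the first gene named; blue boxes are the annotated genes and purple ticks the hairpins. Mir335 lies 17.8 kb into Mest, Mir483 11.8 kb into Igf2 and Mir675 0.996 kb into H19, while Mir298 and Mir296 lie beyond the annotated end of Nespas.

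The 2 libraries held 11018624 reads in replicate 1 and 9729498 in replicate 2, of which 5097205 and 4460836 were counted in the sense direction of a microRNA gene. Of all reads, 34.5% and 35.1% mapped to several places and entered no gene. Of the 1973 genes, 385 (19.5%) had 10 or more counts in each library and are called detected. In keeping with the hindbrain label, the axial microRNAs Mir10a and Mir10b together held 100993 CPM in replicate 1 and 85868 CPM in replicate 2, where CPM is the count per 1000000 sense counts of a library. The neuronal list held 14884 and 13609 CPM in replicates 1 and 2, with 9 of its 12 counted hairpins detected. Mir137 alone had 9157 CPM in replicate 1 and 7199 CPM in replicate 2. Mir124a-1 had 22 and 13 counts in replicates 1 and 2, Mir124a-2 had 11 and 3, and Mir124a-3 had 1 and 2. Mir9-2 had 4 and 5 counts, and Mir9-3 had 2474 and 2082. The Mir124a and Mir9 hairpins have copies with the same mature form at other loci, whose reads fall in the multimapping class. The list total therefore does not give the level of miR-124 or miR-9. Skeletal muscle microRNAs set the libraries apart, with 387 CPM in replicate 1 and 30.5 CPM in replicate 2. Most of that was Mir206, with 370 CPM in replicate 1 and 24.2 CPM in replicate 2. Of the 6 counted muscle hairpins 3, Mir133a-1, Mir133a-2 and Mir1a-1, were at 0 in both libraries. These have copies with the same mature form at a second locus, whose reads fall in the multimapping class, so their 0 does not give the level of miR-1a or miR-133a.

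All 5 imprinted-locus hairpins were detected, and their levels spread over more than 3 orders of magnitude. By counted reads, Mir335 was among the most abundant hairpins, and Mir298 and Mir296 were well above the middle of the detected genes. Mir483 was near the middle and Mir675 was close to the lower end. Hairpins with identical copies elsewhere lose reads to the multimapping class, so these places are not ranks among all microRNAs of the tissue. The median of the 5 was 2904 CPM, and the median over all detected genes was 150 CPM. Together they held 4.33% of the counts in replicate 1 (exact binomial 95% interval 4.32 to 4.35) and 3.71% in replicate 2 (3.69 to 3.72), a mean of 4.02% ± 0.444 (SD, n = 2). Mir335 alone made up 85.5% and 84.6% of that share in replicates 1 and 2. Without it the other 4 held 0.628% and 0.570% of the counts. In bulk tissue, fewer cells of a type and less RNA per cell cannot be told apart, and the same holds for a level spread over all cells and one held by a few.

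Mir335 is studied in human breast cancer, where it restrains metastasis. It had 188877 counts in replicate 1 and 139873 in replicate 2. These gave 37055 CPM (exact 95% interval 36891 to 37219) in replicate 1 and 31356 CPM (31194 to 31518) in replicate 2, a mean of 34205 ± 4030.0 CPM. About 1 in 29.2 counted reads was a Mir335 read, and by these counts the hairpin ranked 7 of all counted genes in each library. In the order of mean level it stood below Mir100 (39011 ± 2541 CPM) and above Mir10b (33002 ± 7054 CPM), a HOX-cluster microRNA of the posterior neural tube. Its log2 ratio to Mir100 was -0.19 ± 0.26 and to Mir10b 0.06 ± 0.14 (SD, n = 2), so neither place in the order exceeded the spread between libraries. The nearest counted hairpins on chromosome 6 were much lower. Mir183, of the sensory-organ cluster, lies 572 kb away at 1768 ± 78.1 CPM, and Mir29a 321 kb away at 175 ± 7.27 CPM, both on the opposite strand.

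Mir298 and Mir296, the Gnas-region pair, came next. In human endothelium miR-296 is known for a role in growth factor receptor turnover and vessel growth. Separately, miR-298 is known for targeting the messenger RNA of BACE1, the beta-secretase that cleaves the amyloid precursor protein. Mir298 had 15509 and 12374 counts in replicates 1 and 2, which gave 3043 CPM (2995 to 3091) and 2774 CPM (2725 to 2823) and a mean of 2908 ± 190.0 CPM. Mir296 had 15393 and 12436 counts, which gave 3020 CPM (2972 to 3068) and 2788 CPM (2739 to 2837) and a mean of 2904 ± 164 CPM. The 2 ranked 59 and 60 by mean level and changed places between the libraries, Mir298 being ahead in replicate 1 and Mir296 in replicate 2. Around them in the order stood 2 Dlk1-Dio3 microRNAs, Mir541 above at 2949 ± 506 CPM and Mir379 below at 2842 ± 131 CPM. The log2 ratio of Mir298 to Mir541 was -0.01 ± 0.15, within the spread between libraries, and that of Mir296 to Mir379 was 0.03 ± 0.02, just past 2 SD. The other nearest hairpin, Gm27591, 19.1 kb beyond Mir296 on the plus strand, had 0 counts in both libraries, for which the upper limit (3 counts) is 0.589 CPM in replicate 1 and 0.673 in replicate 2.

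Mir483, known in human Wilms tumours where it is raised together with IGF2, was far lower. It had 1045 counts in replicate 1 and 605 in replicate 2, or 205 CPM (193 to 218) and 136 CPM (125 to 147), with a mean of 170.3 ± 49.1 CPM. The 2 libraries did not overlap within counting error. Its rank was 169 in replicate 1 and 192 in replicate 2, and its neighbours by mean level were Mir500 (171 ± 9.00 CPM) and Mir223 (170 ± 25.9 CPM), a microRNA of myeloid cells. The log2 ratio was -0.03 ± 0.50 to Mir500 and -0.02 ± 0.20 to Mir223, both within the spread.

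Mir675, which in mouse placenta limits growth and lowers the Igf1 receptor, had 41 counts in replicate 1 and 23 in replicate 2. That is 8.04 CPM (5.77 to 10.9) and 5.16 CPM (3.27 to 7.74), with a mean of 6.60 ± 2.04 CPM and overlapping intervals. Even so, each library's lower bound lay above the limit of 3 counts set for a count of 0. Because Mir675 lies in an exon of H19 on the same strand, these counts do not tell its mature forms from fragments of that transcript. Its neighbours in level were Mir3062 at 6.64 ± 1.15 CPM and Gm26117 at 6.52 ± 3.83 CPM, with log2 ratios of -0.03 ± 0.20 and 0.12 ± 0.45 that lay within the spread. On chromosome 7 the next counted hairpins beyond the pair were Mir7064, 916 kb past Mir483 at 0.925 ± 0.357 CPM, and Mir3104, 585 kb past Mir675 at 0.645 ± 0.357 CPM, neither detected.

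**Figure D2:**
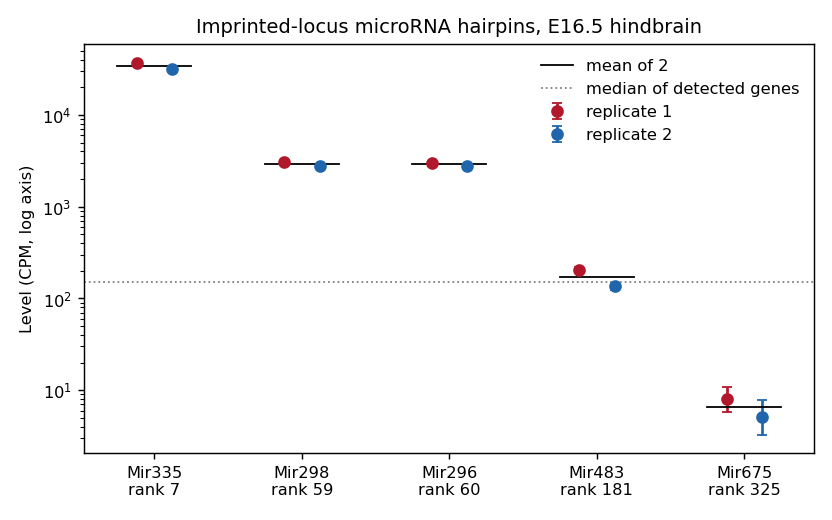
Level of each hairpin in CPM on a log axis, 1 point per library with its exact 95% interval; bars are the mean of the 2 libraries and the dotted line is the median of detected genes (150 CPM). Mir335 sits at 37055 and 31356 CPM in replicates 1 and 2, the Mir298 and Mir296 points lie at the same height, at 3043 and 3020 CPM in replicate 1 and 2774 and 2788 CPM in replicate 2, and Mir675 is lowest at 8.04 and 5.16 CPM.

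**Figure D3:**
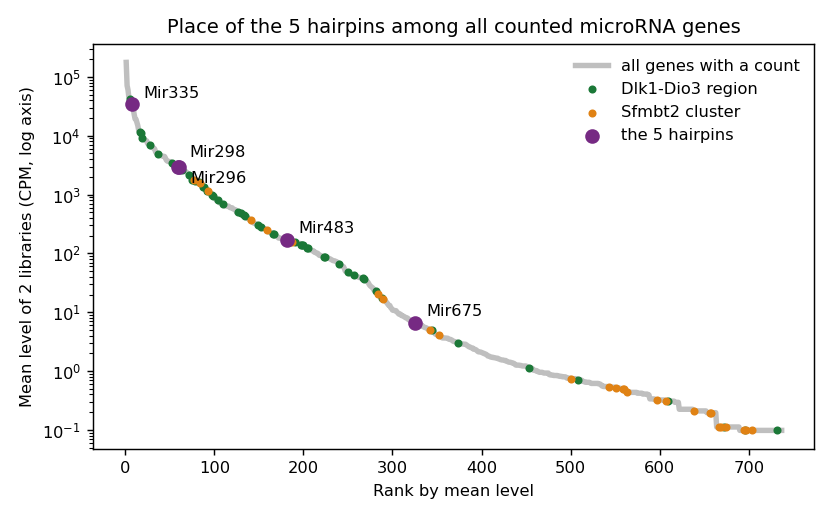
Mean CPM on a log axis against rank for all genes with a count, with the 5 hairpins, the Dlk1-Dio3 region and the Sfmbt2 cluster marked. The 5 hairpins take ranks 7, 59, 60, 181 and 325.

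The order of the 5 was clear except within the Gnas-region pair. A pair was called different where the 2 libraries gave its log2 ratio 1 sign and the mean was larger than 2 SD. No p-value is given, because with 2 libraries the smallest that an exact sign-flip test allows is 0.5. Mir335 exceeded Mir298 by a log2 ratio of 3.61 in replicate 1 and 3.50 in replicate 2, a mean of 3.55 ± 0.08, or 11.7-fold. Mir296 exceeded Mir483 by 3.88 and 4.36 in replicates 1 and 2, a mean of 4.12 ± 0.34, or 17.4-fold. Across the whole range, Mir335 exceeded Mir675 by 12.37 ± 0.28 on the log2 scale, or 5293-fold. Of the 10 pairs among the 5 hairpins, 9 were different by this rule. The 10 pairs rest on 5 levels and are not independent. The share of pairs of other genes passing the rule was not taken, so the count is not a trait of these hairpins.

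The exception was Mir298 over Mir296, which had a ratio of 1.01 (exact 95% interval 0.985 to 1.03) in replicate 1 and 0.995 (0.970 to 1.02) in replicate 2. Each interval held 1, so no difference was detectable at this depth. The log2 ratio averaged 0.0018 ± 0.0128. To set this against other hairpins that lie together, all 132 pairs of detected hairpins were taken that are next to each other on 1 strand within 100 kb, a comparison chosen after the values were seen. The median size of the log2 ratio over these pairs was 2.49, the largest was 10.4, and 0 pairs were closer in level than Mir298 and Mir296. The ratio of Mir298 to Mir296 changed by 0.02 on the log2 scale between the libraries, against a median of 0.20 over the 132 pairs, and 5 pairs changed less. Such changes also hold counting error, and the 132 pairs were not matched for depth. Summed over both libraries, the lower hairpin had 27829 counts in this pair and 28 in Mir449a/Mir449b. Hairpins with copies elsewhere lose reads to the multimapping class, which can widen the ratios. Among the 79 pairs in which neither hairpin shares a mature form with another hairpin of the RefSeq table, the median size was 2.26, 0 pairs were closer and 3 changed less.

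Mir483 and Mir675, the other pair on 1 chromosome, are 77.8 kb apart in different host genes. In most mouse tissues these genes are expressed from opposite parental chromosomes. Mir483 exceeded Mir675 by a ratio of 25.5 in replicate 1 and 26.3 in replicate 2, a log2 ratio of 4.67 (4.22 to 5.16) and 4.72 (4.12 to 5.39). The mean was 4.69 ± 0.03, or 25.9-fold. The log2 ratio between them changed by -0.05 between the libraries, with an exact interval of -0.86 to 0.74 that the few Mir675 counts make wide. Of the 132 pairs, 94 were closer in level than this one and 18 changed less between the libraries.

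**Figure D4:**
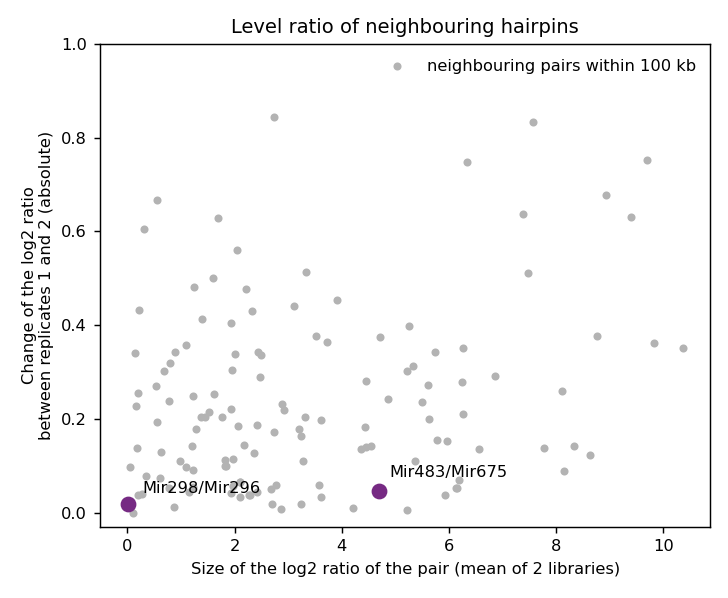
Size of the log2 ratio (x axis, mean of 2 libraries) and the absolute change of that ratio between replicates 1 and 2 (y axis) for 132 pairs of neighbouring detected hairpins within 100 kb, grey, with the 2 imprinted-locus pairs in purple. Mir298/Mir296 lies at the left edge with a ratio near 0, and Mir483/Mir675 at 4.69, with both changes under the median of 0.20.

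Differences between the 2 pools were then tested for every gene with 20 or more counts in all (401 genes). The test was the exact binomial test, two-sided, of a gene's 2 counts given the TMM-scaled library totals, with Benjamini-Hochberg adjustment. The test measures counting noise, so it compares these 2 libraries and not conditions. All 5 hairpins were higher in replicate 1, and 4 of the 5 passed the test in that direction, where 24.4% of all genes were called higher in replicate 1 and 21.9% higher in replicate 2 (46.4% in either direction). With plain library totals 4 of the 5 passed again, and the shares of all genes were 32.7% higher in replicate 1 and 15.5% higher in replicate 2. The log2 ratios under plain totals were 0.07 higher for every gene.

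The sizes of these differences were small for the abundant hairpins. Mir335 was 1.13-fold higher in replicate 1, a log2 ratio of 0.18 (0.17 to 0.19) with an adjusted p of 4.71e-261 by the exact binomial test. Its size ranked 213 of the 401 genes, and the median absolute log2 ratio over those genes was also 0.18. Mir298 had a log2 ratio of 0.07 (0.03 to 0.10; adjusted p = 0.000288, exact binomial test) and Mir296 one of 0.05 (0.02 to 0.08; adjusted p = 0.00964, exact binomial test), ranking 318 and 343 of 401. At the depth of these 3 hairpins counting error is small enough for differences of this size to pass.

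The Igf2 and H19 hairpins showed larger ratios on fewer counts. Mir483 was 1.44-fold higher in replicate 1, a log2 ratio of 0.53 (0.39 to 0.68) with an adjusted p of 1.83e-12 by the exact binomial test, ranking 51 of 401 by size. Mir675 had a ratio of 1.49-fold, 0.58 on the log2 scale with an interval of -0.19 to 1.38, and did not pass (adjusted p = 0.234, exact binomial test). None of the 5 reached the 1.5-fold that 5.49% of all genes passed in the direction of replicate 1. Under edgeR's exact test with an assumed biological coefficient of variation of 0.1, 0 of the 5 were called and 1.75% of all genes were. There Mir483 had the lowest p of the 5 (p = 0.0151, adjusted p = 0.318, edgeR exact test).

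Ratios between hairpins do not depend on the scaling of the libraries, and they also differed between the pools. The log2 ratio of Mir335 to Mir483 was lower in replicate 1 by 0.36 (change -0.36, exact interval -0.50 to -0.21), and that of Mir298 to Mir483 was lower by 0.46 (change -0.46, interval -0.61 to -0.31). Mir335 over Mir298 changed by 0.11 (0.07 to 0.14). Mir483 therefore moved between the pools by more than Mir335 and the Gnas-region pair did, beyond counting error.

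Other microRNAs also differed between the pools, and their values stand beside the Mir483 result without a test of their part in it. The muscle list was 3.60 higher in replicate 1 on the log2 scale. The hindbrain axial list was 0.17 higher in replicate 1, with Mir10a at 0.06 and Mir10b at 0.37. Outside the lists, Mir196b, picked after the values were seen, had 859 counts in replicate 1 and 146 in replicate 2 (log2 ratio 2.30). Of the mesenchymal and meningeal list, which totalled 7727 CPM in replicate 1 and 7564 CPM in replicate 2, all 6 hairpins were counted, with Mir199a-1 at 0 in replicate 1 and at 1 count in replicate 2. Of its 5 tested hairpins 1 was called higher in replicate 1, Mir214 (log2 ratio 0.92), and 2 higher in replicate 2, Mir143 (-0.07) and Mir145a (-0.22). With plain totals 2 of the 5 were called higher in replicate 1 and 0 in replicate 2, so these directions depend on the scaling. The choroid plexus list, with 7 of 7 hairpins detected, totalled 9308 CPM in replicate 1 and 10132 CPM in replicate 2. Of these 7 hairpins, 1 was called higher in replicate 1, Mir449a (log2 ratio 0.09). In replicate 2, 2 were called higher, Mir204 (-0.46) and Mir34c (-0.26). Endothelial Mir126a stood at 27475 and 29178 CPM in replicates 1 and 2, and the erythroid list at 216 and 206 CPM. The leukocyte list stood at 401 and 366 CPM in replicates 1 and 2, with Mir142b at 0, the endocrine list at 1232 and 1281 CPM, and the liver microRNA Mir122 at 41.0 and 41.9 CPM. The part of any of these microRNAs or cell types in the Mir483 difference was not tested.

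**Figure D5:**
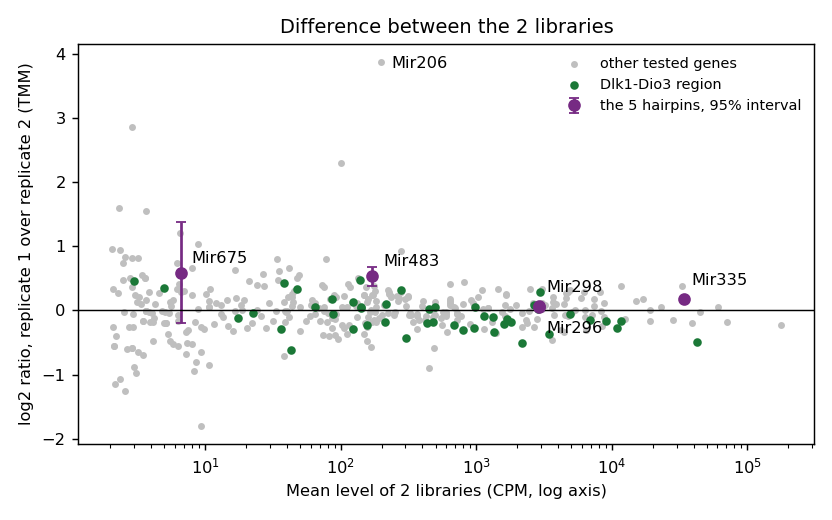
Log2 ratio of replicate 1 over replicate 2, TMM-scaled (y axis), against mean CPM on a log axis for 401 tested genes, with the Dlk1-Dio3 region in green and the 5 hairpins in purple with exact 95% intervals. All 5 lie above 0, Mir483 at 0.53 and Mir675 at 0.58 with an interval that crosses 0.

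Other imprinted loci of the mouse also hold microRNAs, and the 5 hairpins were set beside them. Of the 59 counted hairpins of the Dlk1-Dio3 region, a maternally expressed cluster on chromosome 12, 46 were detected. They held 10.8% of the counts in replicate 1 and 12.5% in replicate 2 (11.7% ± 1.22, SD, n = 2). The 4 most abundant were Mir487b (42616 ± 8979 CPM), Mir127 (11617 ± 595 CPM), Mir369 (10979 ± 1144 CPM) and Mir382 (9012 ± 449 CPM). Mir335 therefore exceeded every Dlk1-Dio3 hairpin except Mir487b in mean level. Against Mir487b the log2 ratio of Mir335 was 0.03 in replicate 1 and -0.64 in replicate 2, a mean of -0.31 ± 0.48, so the order of the 2 turned between the libraries.

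The Sfmbt2 cluster, a rodent-specific array of repeated hairpins in an intron of a paternally expressed gene on chromosome 2, had 10 of 107 counted hairpins detected. Its counts came to 0.526% ± 0.0172, led by Mir467e (1750.3 ± 86.7 CPM), Mir467d (1555 ± 27.7 CPM), Mir467c (1132 ± 128 CPM) and Mir669o (366 ± 3.98 CPM). Copies in this cluster are near-identical and lose reads to the multimapping class, so these levels are uncertain. Mir298 and Mir296 each exceeded the highest of them. Mir184, of the Rasgrf1 domain on chromosome 9, had 19.3 ± 2.18 CPM, between Mir483 and Mir675. Over all these lists and the 5 hairpins, 172 hairpins were counted and 62 detected. They held 15.6% of the counts in replicate 1 and 16.8% in replicate 2, and the 5 hairpins made up 27.7% and 22.1% of that.

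Between the pools, the imprinted lists did not move one way. In the Dlk1-Dio3 region 6 of 46 tested hairpins were called higher in replicate 1 and 24 higher in replicate 2, with a median log2 ratio of -0.11. With plain totals the counts were 12 and 19. In the Sfmbt2 cluster 1 of 10 was called higher in replicate 1 and 2 higher in replicate 2, and Mir184 had a log2 ratio of 0.17 that did not pass. The 5 hairpins had a median of 0.18, with 4 called higher in replicate 1 and 0 in replicate 2, and the median over all 401 genes was 0.0025. Over all genes, 24.4% were called higher in replicate 1 and 21.9% higher in replicate 2. These differences between lists were not tested.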

How the data were processed

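Small-RNA libraries of 2 pools of E16.5 mouse hindbrain (1 group) were analysed. Per the labels, total RNA was used, with a size limit of 30 nt. The authors mapped to mm10 and deposited unnormalized counts of reads for the genes of GENCODE M4, per the text deposited with each sample. No source used here names the aligner or counter. The tables hold 3 count columns, of which the one holding 97.6% of assigned reads in each library was taken as sense, and 4 summary lines that stayed out of the totals. Reads mapping to several places entered no gene.

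Identifiers were matched without version to GENCODE M21 (1894 of 1973). Sequences are those of RefSeq, and all 5 hairpins matched. CPM uses the sense total, and 1 count was worth 0.196 CPM in replicate 1 and 0.224 CPM in replicate 2. Intervals are 95% exact binomial (Clopper-Pearson); they and the limit of 3 counts for a count of 0 cover counting error only, since the reads carry no molecular identifiers. The p-values compare 2 libraries. edgeR's quasi-likelihood test has no residual degrees of freedom here, so the exact binomial test was used. It was first tested on simulated data. Those data held counting noise only, as the test assumes, so they could not check its calls under variation between pools.

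The text names the 5 hairpins, the gene directly above and below each in mean CPM, hairpins sharing a seed, the nearest counted hairpin on each side within 1 Mb, and the 4 most abundant of each other imprinted list. Marker microRNAs, seed-core matches and Mir196b, the last picked after the values were seen, are named besides. The members and lists were chosen with earlier results of these data known. Alternatives were unstranded counts, other totals, plain and DESeq2 scaling, other count minimums, neighbouring pairs of single-copy hairpins only (chosen after seeing the data), the replicates singly, and the exact test of edgeR at 2 settings of the biological coefficient of variation. Software was R 4.3.3 with DESeq2 1.42.0 and edgeR 4.0.16, and Python 3.11.15 with scipy 1.17.1, pandas 2.3.3, numpy 2.4.6 and matplotlib 3.10.9.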

Additional observations from a re-analysis of the deposited data

Results flagged for a closer look

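Mir335 had 5 reads on the strand opposite to its hairpin in replicate 1 and 3 in replicate 2, in a count column that the levels above do not use. In replicate 1 this is above the limit of 3 counts set for a count of 0. These reads made up 0.00265% of the reads at Mir335 in replicate 1 and 0.00214% in replicate 2. Over all genes the opposite strand held 2.41% and 2.44% in replicates 1 and 2. That share pools genes that differed, so it is not a reference for 1 hairpin. Mir100 and Mir487b had 0 opposite counts in both libraries, and Mir183 had 3 in replicate 1 and 7 in replicate 2. Mir298 and Mir296 had 0 opposite reads in both libraries.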

How the results depend on the processing

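The share of counts held by the 5 hairpins (4.02%) came to 4.88% when the total left out the most abundant gene and to 2.29% when multimapping reads were added to it, since these settings change only the denominator. Each replicate alone gave 3.71% to 4.33%. With the exact test of edgeR and a biological coefficient of variation set to 0.1, the 186 genes called different between the pools became 7, the 98 higher in replicate 1 became 5, the 88 higher in replicate 2 became 2, and the 4 hairpins called became 0. At the coefficient estimated from the libraries (16.2%), the counts were 3, 2, 1 and 0; that estimate treats the 2 pools as replicates and so already holds the difference tested, which makes calls unlikely by construction. Of the 5 hairpins, 1 had an unadjusted p under 0.05 at the first setting and 0 at the second. The share of all genes under that unadjusted threshold was not taken, so nothing is drawn from these counts. The 4 hairpins called between the pools kept their direction under the alternatives run. The other called genes were not followed singly, and with plain library totals those called higher in replicate 2 fell from 88 to 62. The ratio of Mir298 to Mir296, which was not called, turned sign between the replicates taken singly (log2 0.01 without replicate 2 and -0.01 without replicate 1). The ratios between members adjacent in level kept their direction and call under unstranded counts. Mir675 has no value at a count minimum of 100, and its 41 and 23 counts in replicates 1 and 2 limit its precision most. The comparison of the pools cannot leave out a replicate. No paired analysis was possible because the series has 1 group.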
